A study of Rattus norvegicus with 6 samples.

Results

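The phagocyte NADPH oxidase was followed through 6 of its subunit genes, Cybb, Cyba, Ncf1, Ncf4, Rac1 and Rac2, out of 14217 genes with a probe set of their own on the array. They were chosen by name, as all probe sets whose only annotated symbol is 1 of the 6, which gave 9 probe sets of 31042 tested. The RNA came from whole blood of 3 rats with middle cerebral artery occlusion (MCAO) and 3 sham-operated rats, on 6 GeneChip rat genome arrays with 1 array per rat. All were male Sprague-Dawley rats 8 weeks old. In the MCAO group a coated thread passed through the left internal carotid artery closed the origin of the middle cerebral artery for a time and was then withdrawn, whereas the sham group received the same surgery with an uncoated thread. In both groups the left common and external carotid arteries were tied, and blood was drawn from the heart 24 h after reperfusion. The 3 MCAO rats had been selected from a larger operated group for a similar infarct size, so they stand for infarcts of that size. Whole blood mixes neutrophils, monocytes, lymphocytes, platelets and red cells, so fewer cells of a type and less RNA per cell cannot be told apart.

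The oxidase makes superoxide, with which phagocytes kill microbes. Cybb (gp91-phox, or Nox2) is the catalytic subunit that carries electrons across the membrane, and Cyba (p22-phox) is the membrane partner that stabilises it. At rest the cytosolic organizer Ncf1 (p47-phox) and Ncf4 (p40-phox), which binds a membrane lipid, stay apart from the membrane. On stimulation they move to it together with a Rac GTPase, Rac2 mainly in blood cells and Rac1 in most cell types. Human loss of CYBB, CYBA, NCF1 or NCF4 function causes chronic granulomatous disease.

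In the GRCr8 assembly Cybb lies at chrX:16030596-16065065 and Cyba at chr19:67396143-67404214. Ncf4 (chr7:111705926-111723893) and Rac2 (chr7:111981825-112009201) are separated by 258 kb of chromosome 7 that holds 9 other protein-coding genes. Ncf1 (chr12:28121816-28131080) and Rac1 (chr12:16150411-16170864) share chromosome 12 with 231 protein-coding genes between them. The RefSeq promoter table held 3 of the 6 genes, and up to 250 bases before each gene are shown so that the promoter of the gene with the widest values, Cybb, can be read against those of 2 partners. Each is given from 5′ to 3′ on the strand of its gene, at chrX:16065066-16065315 (minus strand) for Cybb, chr19:67404215-67404464 (minus strand) for Cyba and chr12:28121635-28121815 (plus strand) for Ncf1. The Ncf1 stretch is 181 bases long, since 69 of the 250 bases in the table lie inside the annotated gene. Capitals mark GAGGAA, a sequence that the myeloid factor PU.1 binds, CCAAT, and the GC box GGGCGG, each searched on both strands. Other GGAA stretches were not searched or marked.
Cybb: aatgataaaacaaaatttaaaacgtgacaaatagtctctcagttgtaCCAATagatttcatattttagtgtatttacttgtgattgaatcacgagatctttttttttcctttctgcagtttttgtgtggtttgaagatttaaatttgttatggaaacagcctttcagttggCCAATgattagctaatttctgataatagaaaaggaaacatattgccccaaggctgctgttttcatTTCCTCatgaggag
Cyba: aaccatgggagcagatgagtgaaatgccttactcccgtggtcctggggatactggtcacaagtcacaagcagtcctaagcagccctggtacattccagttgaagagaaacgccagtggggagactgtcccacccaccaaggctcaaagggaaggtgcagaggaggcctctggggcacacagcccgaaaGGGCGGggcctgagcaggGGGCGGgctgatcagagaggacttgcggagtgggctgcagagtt
Ncf1: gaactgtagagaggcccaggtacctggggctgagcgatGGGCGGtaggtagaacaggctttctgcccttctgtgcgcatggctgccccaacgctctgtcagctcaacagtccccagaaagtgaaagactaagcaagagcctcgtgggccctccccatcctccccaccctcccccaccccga
The Cybb window held GAGGAA on the opposite strand, 14 to 9 bases before the start, and CCAAT at 203 to 199 and at 79 to 75 bases before it. The Cyba window held the GC box at 62 to 57 and at 44 to 39 bases before the start, and the Ncf1 window held it at 143 to 138 bases before the annotated gene. Of 33469 rat promoter windows of 250 bases, 23.3% held GAGGAA, 34.0% held CCAAT and 30.5% held the GC box, on either strand. The Cybb window was 32.0% G and C, the Cyba window 59.6% and the Ncf1 window 61.9%, where the median window had 51.2%. These matches are descriptions of the letters only.

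The values are log2 expression values made with the DFW (Distribution Free Weighted) method, which contracts differences between arrays very unequally between probe sets. The range of a probe set over the 6 rats had a median of 6.55e-06, and 168 of the 31042 probe sets ranged over more than 0.01. For that reason a log2 difference of DFW values is no fold change of RNA. Probes bind with different strength and the values are not per length, so levels at different probe sets were not set against each other. Probe sets were called with Rank Products, the method the study names, at a false discovery rate (FDR) under 0.05, and 180 were called lower and 39 higher in the MCAO group. For each difference (MCAO minus sham), limma gave the standard error (SE), and the rats were permuted in a two-sided exact test, whose smallest possible p in this design is 0.1. Replicates are separate rats. The files hold no background estimate, so that a level above background cannot be stated for any subunit.

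Among the 9 probe sets, 1 of the 2 for Cybb was called lower in the MCAO group, none was called higher and 8 were not called. Over all probe sets 0.58% were called lower, 0.126% higher and 0.705% in either direction. Cybb is also among the genes that the study picked on these same rats, so its call is not independent evidence. At that probe set (1379344_at) the log2 expression was 6.9435, 6.9618 and 6.9860 in MCAO rats 1, 2 and 3, against 6.9623, 6.9824 and 6.9736 in sham rats 1, 2 and 3. The MCAO rats held the 2 lowest values and the highest one, so that all 3 sham rats lay between them. MCAO rats averaged 6.964 ± 0.0213 and sham rats 6.973 ± 0.0101 (SD, 3 rats each). The log2 difference was -0.00898 (SE 0.0128, FDR 0.0231). This difference was smaller than the SD of either group. Its exact permutation p was 0.6, and limma did not call it (limma adjusted p = 1). Limma called 0 of the 31042 probe sets, with 1150 (3.7%) at an unadjusted p under 0.05.

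The call can be followed through the 9 differences between an MCAO and a sham rat on which Rank Products rests, of which 6 were below 0 for Cybb. Against the 3 sham rats, MCAO rat 1 gave differences of -0.0188, -0.0389 and -0.0301, which took places 22, 17 and 16 from the lowest among 31042. MCAO rat 2 gave -0.000461, -0.0206 and -0.0118, at places 261, 16 and 37. MCAO rat 3 gave 0.0237, 0.00359 and 0.0124, which took places 22, 84 and 37 from the highest. Cybb thus stood near the lowest end of the list in 2 MCAO rats and near the highest end in the other. The probe set had the 40th largest range of all, and 211 of all 219 calls fell in the 1000 probe sets of largest range. Without MCAO rat 1 the difference was 0.00115 and without MCAO rat 3 it was -0.0201. With 1 rat left out it was called only without MCAO rat 3 (FDR 0 in 100 permutations), and not without any of the other 5 rats (FDR from 0.112 to 0.336).

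The other Cybb probe set (1369181_at) had values of 5.87524, 5.87536 and 5.87596 in the MCAO rats, against 5.87539, 5.87580 and 5.87568 in the sham rats. All 6 rats stood in the same order as at the called probe set, from MCAO rat 1 at the bottom to MCAO rat 3 at the top. Its log2 difference was -0.000106 (SE 0.000238, FDR 0.661, exact permutation p = 0.8). The difference had the same direction at both probe sets and was within the replicate spread at both.

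Cyba, the membrane partner of Cybb, was not called at either probe set. The probe set 1370219_at had 6.71763, 6.71766 and 6.71775 in the MCAO rats, against 6.71765, 6.71773 and 6.71768 in the sham rats. MCAO rat 1 was again the lowest and MCAO rat 3 the highest, with a log2 difference of -5.29e-06 (SE 3.89e-05, exact permutation p = 1). At 1378451_at the 3 MCAO rats were all below the 3 sham rats, over a range of only 6.99e-06, with a log2 difference of -3.41e-06 (SE 1.38e-06, exact permutation p = 0.1, the smallest possible). It was the only one of the 9 probe sets whose groups did not overlap, as in 8.41% of all probe sets. The sign of both Cyba differences turned to positive with the arrays centred on their medians.

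Neither cytosolic subunit was called. The organizer Ncf1 (1387413_at) spanned 8.38e-06 over the 6 rats. Its lowest and highest values were both in sham rats, sham rat 3 and sham rat 1, and the log2 difference was -9.67e-09 (SE 2.32e-06, exact permutation p = 1). Ncf4 (1391737_at) had 6.006196, 6.006196 and 6.006287 in the MCAO rats, against 6.006199, 6.006236 and 6.006232 in the sham rats. The 6 rats stood in the same order as for Cybb, but MCAO rat 3 lay farther above the rest, and the log2 difference was 4.30e-06 (SE 3.05e-05, exact permutation p = 1). With quantile normalization this difference turned to -4.00e-05.

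Rac2, the GTPase of blood cells, had the next lowest FDR after Cybb. Its values (1372404_at) were 7.841, 7.852 and 7.857 in the MCAO rats, against 7.851, 7.858 and 7.854 in the sham rats. MCAO rat 1 lay well below all others, and the other 2 MCAO rats lay within the sham range. The log2 difference was -0.00441 (SE 0.00466), outside the threshold at an FDR of 0.0734 (exact permutation p = 0.5). Of its 9 differences 6 were below 0, and the 3 of MCAO rat 1 took places 52, 53 and 65 from the lowest. Without MCAO rat 1 the difference shrank to -0.000151 (FDR 0.459), and without MCAO rat 3 it was called lower at -0.00783 (FDR 0.00769). With quantile normalization it was -0.00223 (FDR 0.528).

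Rac1, the GTPase of most cell types, had differences of opposite sign at its 2 probe sets. The probe set 1388332_at had 9.550, 9.553 and 9.556 in the MCAO rats, against 9.552, 9.553 and 9.554 in the sham rats, so that the MCAO rats lay on both sides of the sham rats. The log2 difference was 0.000345 (SE 0.00169, FDR for lower 0.573, exact permutation p = 0.9). The probe set 1372513_at had 8.1299, 8.1302 and 8.1314 in the MCAO rats, against 8.1304, 8.1311 and 8.1315 in the sham rats. Here sham rat 3 was the highest, and the log2 difference was -0.000512 (SE 0.000538, FDR 0.235, exact permutation p = 0.4). The second was called lower without MCAO rat 3 (FDR 0.0417), and the first had a difference of -0.00122 without that rat, not called at an FDR of 0.0954.

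**Figure D1:**
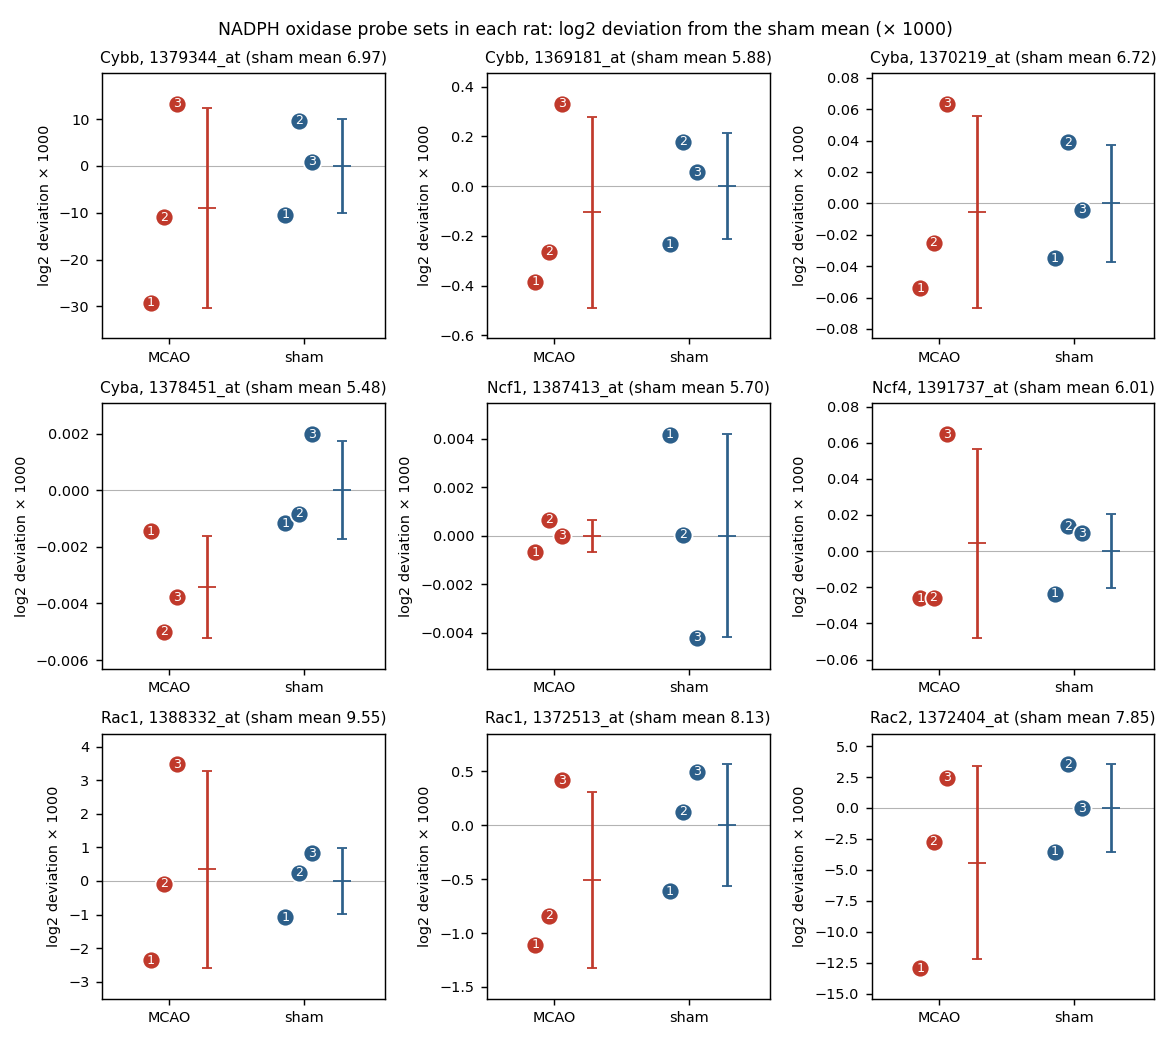
Log2 deviation of each rat from the sham mean of its probe set, multiplied by 1000 (y axis), for the 9 NADPH oxidase probe sets in the MCAO and sham groups (x axis), where digits mark rats 1 to 3 and bars the mean ± SD of 3 rats. The scale of the y axis changes by orders of magnitude between panels. MCAO rat 1 is the lowest point in 7 panels and MCAO rat 3 the highest in 5.

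The catalytic subunit was next set against each other subunit within each rat, to ask whether it moved differently. Each gene was represented by its probe set with the higher mean. The change in Cybb minus Cyba was -0.00897, that in Cybb minus Ncf1 -0.00898, and that in Cybb minus Ncf4 -0.00898 (exact permutation p = 0.6 each). The change in Cybb minus Rac1 was -0.00932 (exact permutation p = 0.5) and in Cybb minus Rac2 -0.00457 (exact permutation p = 0.7). After Benjamini-Hochberg adjustment over the 5 pairs all had an exact permutation p of 0.7. Since the smallest possible p is 0.1, no pair could fall under 0.05. The test therefore cannot decide whether Cybb moved differently. With the mean of a gene's probe sets in place of 1 probe set, the first 4 changes lay between -0.00455 and -0.00446 and that against Rac2 was -0.000132. With each probe set divided by its SD, Cybb minus Rac1 was -0.747 SD, with an unadjusted exact permutation p of 0.1. The exact permutation p in that setting was 0.2 against Cyba, 0.8 against Ncf1, 0.3 against Ncf4 and 0.4 against Rac2. Since Cybb had by far the widest values, the first 3 changes with 1 probe set per gene are nearly the Cybb change itself. Divided by the SD within groups, the differences were -0.54 and -0.34 SD at the Cybb probe sets, -0.10 and -1.93 SD at those of Cyba and -0.0032 SD for Ncf1. They were 0.11 SD for Ncf4, 0.16 and -0.73 SD for Rac1 and -0.73 SD for Rac2.

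Several probe sets had a similar order of the rats. MCAO rat 1 was the lowest of the 6 at 7 of the 9 probe sets, and MCAO rat 3 was the highest at 5, all of them among those 7. Both Cybb probe sets and Ncf4 had the complete order in common, MCAO rats 1 and 2, sham rats 1, 3 and 2, then MCAO rat 3. Ncf1 did not share it, with a Spearman rho between -0.37 and -0.09 to the other 8 probe sets over the 6 rats. The SD was larger in the MCAO group than in the sham group at 8 of the 9, from 1.05 times for Cyba at 1378451_at to 3.01 times for Rac1 at 1388332_at, with Ncf1 as the exception at 0.161 times. These patterns were also found outside the oxidase, above all where the values ranged widely. Over all probe sets MCAO rat 1 was lowest in 19.5%, and among the 1000 with the largest range it was lowest in 58.6%. MCAO rat 3 was highest in 15.5% of all and in 35.9% of these 1000. Only the called Cybb probe set, Rac2 and both Rac1 probe sets belong to these 1000. By range the other Cybb probe set stood at place 1309, Cyba at 3084 and 14973, Ncf4 at 3468 and Ncf1 at 13558. MCAO rat 1 was lowest and MCAO rat 3 highest in 6.16% of all and in 27.4% of these 1000. The full order of Cybb was found in 0.544% of all and in 3.9% of these 1000, and the larger SD in MCAO rats in 56.8% and 70.1%. MCAO rats had the lower mean at 7 of the 9 probe sets, at 46.6% of all and at 80.1% of the 1000. The 9 probe sets had a median difference of -5.29e-06, where that of all probe sets was 6.72e-08.

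**Figure D2:**
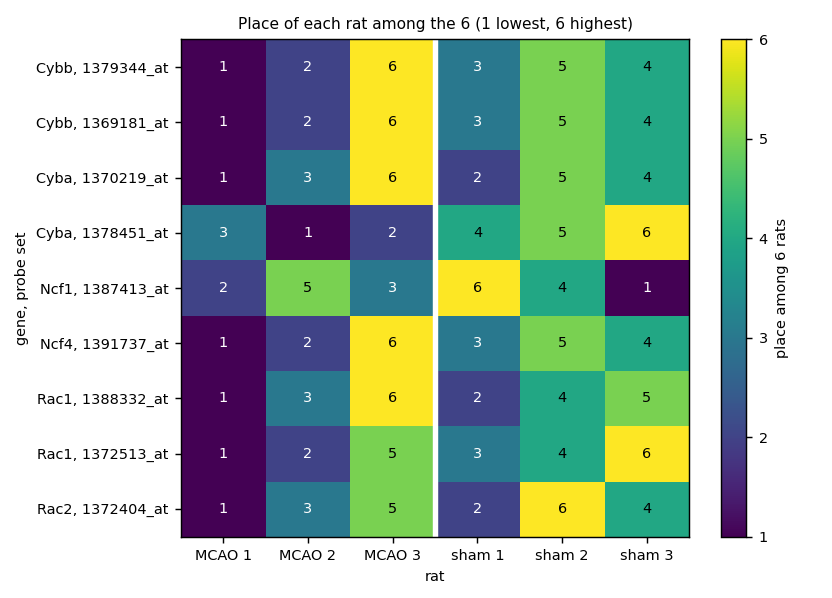
Place of each rat (x axis) among the 6, from 1 for the lowest to 6 for the highest value, at each NADPH oxidase probe set (y axis), with the MCAO rats left of the white line. MCAO rat 1 holds the first place in 7 of 9 probe sets, while Ncf1 and Cyba at 1378451_at start with another rat.

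Blood cell markers were read in the same rats, and for each list the linear levels were summed within a rat. A few probe sets carried the larger sums, and since levels at different probe sets are not comparable the sums are no measure of cell number. Of 12 neutrophil markers 9 were measured, and their sum ran between 1196 and 1255 in MCAO rats, against 1216 and 1226 in sham rats, lowest in MCAO rat 1 and highest in MCAO rat 3. S100a9 made up 44.0% of this sum and S100a8 21.1%. MCAO rat 1 was the lowest at 5 of the 9 markers and MCAO rat 3 the highest at 8. Over all probe sets MCAO rat 1 was lowest in 19.5% and MCAO rat 3 highest in 15.5%. S100a9 and Lrg1 were called lower although their means were higher in the MCAO group, by 0.00271 (SE 0.0278, FDR for lower 0.0413) and 0.00504 (SE 0.0224, FDR for lower 0.0302). Without MCAO rat 3 the differences of both were below 0 and called lower, at -0.0241 and -0.0176, and with any other rat left out neither was called. The neutrophil cytokine receptor Csf3r was called higher, by 0.0131 (SE 0.0187, FDR for higher 0.0362), and without MCAO rat 3 its difference was -0.00607, not called. The Csf3r call was also lost without MCAO rat 2, without sham rat 2 and with quantile normalization (FDR for higher 0.0897). With quantile normalization S100a9 was not called either (FDR for lower 0.065), while Lrg1 kept its call (FDR for lower 0.0464). The sum of the 10 monocyte markers ran between 2219 and 2290 in MCAO rats, against 2240 and 2276 in sham rats, with 61.9% of it from Lyz2 and 15.6% from Cd36. Cd36 was called lower and none higher, with MCAO rat 1 lowest at 3 markers and MCAO rat 3 highest at 6. The shares called over all probe sets were 0.58% lower and 0.126% higher.

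B cells also express Cybb, and of the 6 B cell markers measured Ms4a1, Cr2 and Fcmr were called lower and none higher, with sums between 544.6 and 545.5 in MCAO rats, against 545.6 and 546.5 in sham rats. Of the 8 T cell markers Cd3g and Tcf7 were called lower and none higher, with sums between 716.4 and 718.3 in MCAO rats, against 717.8 and 719.2 in sham rats. Among all probe sets 0.58% were called lower. MCAO rat 1 was the lowest for 5 of the B cell and 6 of the T cell markers, and MCAO rat 3 was the highest for none of either. The calls of Cd36, Ms4a1, Cr2, Fcmr, Cd3g and Tcf7 were each lost without sham rat 2 and without sham rat 3. Over all probe sets the lower calls fell from 180 to 21 without sham rat 2 and to 13 without sham rat 3. Cr2 and Cd3g were called in 2 of the 6 comparisons with a rat left out and Tcf7 in 3, and these 3 were not called with quantile normalization (FDR 0.164, 0.0885 and 0.0518). The study also picked Cd36, Cd3g and Cr2. All calls here come from the same rats as those of the study, so none is independent evidence.

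Among platelet markers MCAO rat 3 was the highest at all 6 measured, and the mean was higher in the MCAO group for 5. That rat was also the highest in 15.5% of all probe sets and in 35.9% of the 1000 with the largest range. Their sum ran between 4270.1 and 4271.4 in MCAO rats, against 4269.6 and 4270.3 in sham rats. Slc18a2, a monoamine transporter of platelet granules, was called higher by 0.00113 (SE 0.000102, FDR for higher 0.00278, exact permutation p = 0.1), with all 3 MCAO rats above the sham rats. Its call was lost without MCAO rat 1, without MCAO rat 2 and with quantile normalization (FDR for higher 0.0779). Over all probe sets the 39 higher calls fell to 14 without MCAO rat 1, 17 without MCAO rat 2 and 24 with quantile normalization. Among all probe sets 0.126% were called higher, and the groups did not overlap in 8.41%. Of the 6 red cell markers measured none was called, and all had the lower mean in the MCAO group, with the largest difference for the anion exchanger Slc4a1 at -0.000541 (SE 0.000279). Their sum ran between 38483.5 and 38483.9 in MCAO rats, against 38483.2 and 38485.7 in sham rats. The hemoglobin gene Hbb read 14.21 in all 6 arrays, near the highest value of the table at 14.43, and its constancy says nothing of amounts. The part of cell numbers in the Cybb and Rac2 values was not tested.

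**Figure D3:**
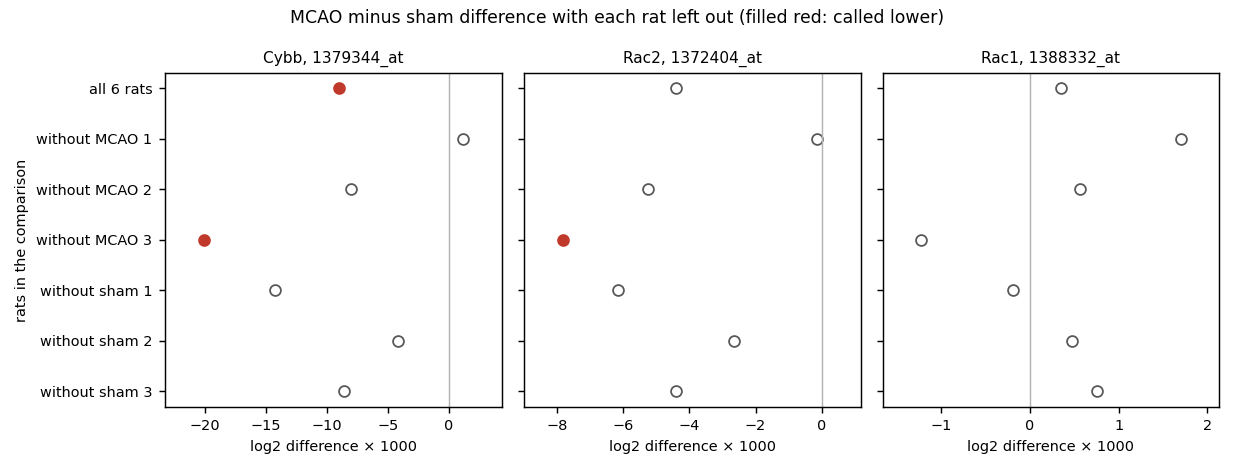
Log2 difference (MCAO minus sham, multiplied by 1000, x axis) of Cybb, Rac2 and Rac1 with all 6 rats and with each rat left out (rows), where filled red points were called lower by Rank Products. The Cybb difference lies at -0.0201 on the unmultiplied scale without MCAO rat 3 and at 0.00115 without MCAO rat 1.

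Among wider lists of genes, which also hold relatives of Rac and of the subunits, a few were called lower and none higher. The lists were chosen with earlier results of these data known. Of 5 measured genes among further subunits and homologues none was called, with a median difference of 1.74e-06. The largest differences were those of Noxo1, an organizer of nonphagocytic oxidases, at 3.41e-06 (SE 5.06e-06) and of Duox2, a dual oxidase, at 3.01e-06 (SE 1.36e-06).

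Of 15 measured Rac regulators and related GTPases, 2 were called lower and 13 were not called, with a median of -1.95e-06. Over all probe sets 0.58% were called lower, and the groups did not overlap in 8.41%. Cdc42, a relative of Rac, had a log2 difference of -0.00179 (SE 0.00113, FDR 0.0431, exact permutation p = 0.2). The hematopoietic GTPase Rhoh had -0.00130 (SE 0.000686, FDR 0.0390), and all 3 MCAO rats lay below the sham rats (5.75283, 5.75474 and 5.75506 in MCAO rats, against 5.75508, 5.75569 and 5.75577 in sham rats, exact permutation p = 0.1). Arhgdib, which holds Rac and related GTPases in the cytosol of blood cells, had the largest difference of this list at -0.00277 (SE 0.00282, FDR 0.133), with MCAO rat 1 at 7.782 and the others between 7.788 and 7.793.

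Among 13 measured activating kinases and lipases, Prkcb and Akt2 were called lower and 11 were not called, with a median of -1.73e-05. The shares over all probe sets were 0.58% called lower and 8.41% without overlap of the groups. Prkcb, a protein kinase C that phosphorylates Ncf1, had -0.00358 (SE 0.00212, FDR 0.0184, exact permutation p = 0.2), and the groups overlapped at MCAO rat 3 and sham rat 1. Akt2 had -0.00139 (SE 0.000528, FDR 0.0219, exact permutation p = 0.1). All 3 MCAO rats lay below the sham rats, and here the order differed from that of Cybb, with MCAO rat 3 the lowest at 7.26906. None of the 4 genes called in these lists, Cdc42, Rhoh, Prkcb and Akt2, was called when sham rat 1, 2 or 3 was left out, and Cdc42 was not called without MCAO rat 2 either. The study also picked Prkcb, Akt2 and Rhoh. The calls of all 4 come from the same rats as those of the study, so none is independent evidence.

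None of 10 measured receptors that start the burst was called, with a median of -7.22e-08. The largest differences were those of C5ar1, the receptor for complement C5a, at 0.00145 (SE 0.00294) and of Clec7a, which binds fungal glucans, at 0.00127 (SE 0.00243). MCAO rat 1 was the lowest and MCAO rat 3 the highest for both. None of 11 genes of oxidant handling was called, with a median of -5.62e-06. Sod2, which converts mitochondrial superoxide, had -0.00434 (SE 0.00483) and lay just outside the threshold at an FDR of 0.0503, with MCAO rat 2 the lowest at 8.402. Txn1, thioredoxin, had -0.000635 (SE 0.000459, FDR 0.192).

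The genes most like each subunit over the 6 rats were taken from the 1000 probe sets with the largest range, by Pearson's r as a measure of likeness. The points share their array, and with 6 points many probe sets come close to 1. For Cybb they were Mettl9 (0.999), Laptm5, a lysosomal membrane protein of blood cells (0.997), and Ywhab, a 14-3-3 protein (0.997). For Rac2 they were Ppp4r2 (0.999), Arhgdib (0.998) and Pan3 (0.997). For Rac1 they were Adgre5, an adhesion receptor of leukocytes (0.998), Mnda (0.992) and the glycolytic enzyme Pgam1 (0.988). Cyba was nearest to the lysosomal protein Lamp2 (0.992), Tnfsf13 (0.989) and Igsf6 (0.988), and Ncf4 to the glycolytic enzyme Tpi1 (0.975), the interleukin 17 receptor gene Il17ra (0.974) and Hopx (0.974). Ncf1 stood at place 13558 by range, and probe sets with a range like its own were not searched. Among the 1000 it had no close match, and its nearest were RT1-T24-4 (0.678), Bcl11b (0.624) and Gstt3 (0.590). None of these was called except RT1-T24-4, called higher with a difference of 0.93 (SE 0.79). Its values lay between 7.67 and 8.69 in the 3 MCAO rats, against 7.89, 7.97 and 5.58 in sham rats 1, 2 and 3.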

How the data were processed

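Blood RNA was hybridised to 1 array per rat. The authors normalized the 6 arrays together with DFW in R and deposited log2 values, 1 per probe set and array. They lie between 4.93 and 14.43, no filter is stated, and the log base was inferred from this range. After leaving out 57 of 31099 probe sets as controls, Rank Products was run in Python 3.11.15 (numpy 2.4.6) on 31042 probe sets, ranking each of the 9 MCAO minus sham pairs of arrays, with 100 permutations. limma 3.58.1 (R 4.3.3) gave differences, SEs and Benjamini-Hochberg adjusted p values. The behaviour of Rank Products and limma at the unequal spread of these probe sets was not tested. Symbols came from the array annotation, with 20826 probe sets of 1 symbol, and all 9 member probe sets matched GRCr8 genes by gene ID. Other genes were represented by their probe set with the highest mean, and named when called or among the 2 largest differences of a list. Markers of blood cells, named where called or to show the levels of a list (S100a8, Lyz2, Slc4a1, Hbb), were picked after their values were seen. Members and lists were chosen with earlier results of these data known. The number of arrays limits the precision.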

Additional observations from a re-analysis of the deposited data

How the results depend on the processing

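The 219 calls over all probe sets became 123 with quantile normalization, 113 among the probe sets with the higher means, 83 at an FDR under 0.01 and 0 with limma, with an intensity trend or with the replicate block, and ran between 69 (without sham rat 2) and 366 (without MCAO rat 3) with 1 rat left out. The single subunit probe set called became 0 among the probe sets with the higher means (FDR 0.0514), at an FDR under 0.01 and with each limma fit, and ran between 0 and 3 with a rat left out. The Cybb difference of -0.00898 was not called in those settings and ran between -0.0201 and 0.00115 with a rat left out, positive only without MCAO rat 1. Quantile normalization, centring and the control probe sets left the Cybb call in place, and the annotation held no probe set with several symbols that included a member. With a rat left out, the ranges were -0.000324 to 3.37e-05 for the other Cybb probe set, -3.96e-05 to 1.91e-05 for Cyba (1370219_at), -2.12e-06 to 2.07e-06 for Ncf1, -2.59e-05 to 1.95e-05 for Ncf4 and -0.00122 to 0.00170 for Rac1 (1388332_at). Centring turned Cyba to 2.45e-05 and 2.64e-05 and Ncf1 to 2.98e-05, and quantile normalization turned Cyba (1378451_at) to 3.92e-05 and Ncf4 to -4.00e-05 and gave 0 for Rac1 (1388332_at). With a rat left out, S100a9 ran between -0.0241 and 0.0254, Lrg1 between -0.0176 and 0.0224 and Csf3r between -0.00607 and 0.0270. The settings for these marker genes and the 4 called pathway genes were chosen after seeing the data, and of the pathway genes Prkcb kept its call with quantile normalization. The causes were not tested. Cybb minus another subunit ran between -0.0200 and 0.00113 for Cyba, -0.0201 and 0.00115 for Ncf1, -0.0201 and 0.00113 for Ncf4, -0.0189 and -0.000547 for Rac1, and -0.0123 and 0.00130 for Rac2. Cybb minus Rac2 turned to 0.171 SD when each probe set was divided by its SD. Same-numbered rats were different animals whose deviations had a Pearson r of -0.419, -0.851 and -0.899 and a Spearman rho of 0.349, 0.0906 and 0.116, and since not every one exceeds 0.1 they were not treated as pairs. The block changed no call of limma, which had 0 either way.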
